A study of Arabidopsis thaliana with 8 samples.

Results

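AGL54, LAS, DME and SPL are 4 regulators of meristems and reproduction in Arabidopsis thaliana. They were chosen by name, with earlier results of these data known. Each is the only gene annotated to a probe of a small expression array. They make up 4 of the 691 genes that single-gene probes measured, on a table of 3439 probes. The study set total RNA of the tic40 mutant (4 samples) against total RNA of wild type (WT, 4 samples), both in ecotype Columbia 0 and with samples numbered 1 to 4. The mutant lacks normal function of TIC40, a component of the protein import machinery in the inner chloroplast envelope. The labels give no mutant allele, tissue, plant age, growth condition or promoter, and no statement that the samples came from separate plants, so the p-values rest on the variation of these samples alone, which could be technical. No probe names TIC40, so its own level could not be used to check the labels.

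The 4 genes act at different steps of development. AGL54 belongs to the MADS box family of transcription factors, in the type I branch, several members of which act in the female gametophyte and the seed. LAS (LATERAL SUPPRESSOR) is a GRAS family protein that allows axillary meristems, and so side shoots, to form in the axils of leaves. SPL (SPOROCYTELESS, also called NOZZLE) is needed for the cells that give rise to spores to form in anthers and ovules. DME (DEMETER) is a DNA glycosylase that cuts 5-methylcytosine out of DNA, and in the central cell of the female gametophyte it switches on maternal alleles of imprinted genes.

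None of the 4 genes passed the test between tic40 and WT, adjusted over all probes, when all 8 arrays were used. The fitted log2 differences, tic40 minus WT, were -0.48 for AGL54, -0.59 for LAS, 0.61 for DME and 0.75 for SPL. Differences were fitted with limma over all 3318 probes that lay above 0 on at least 1 array, on log2 quantile-normalized intensities, with Benjamini-Hochberg adjustment over those probes. A call was an adjusted p under 0.05, which 7.69% of the probes reached, 2.32% higher and 5.36% lower in tic40. These 255 calls, 77 of them higher and 178 lower, depended on the scaling, on the mutant arrays and on pairing by sample number. As deposited there were 311 higher and 46 lower calls, and leaving out a tic40 array left 43 to 54 calls in all. Pairing same-numbered arrays left 5 calls. So 0 of the 4 genes were called. The unadjusted limma p was under 0.05 for AGL54 and LAS only, whose 95% intervals did not include 0 in this fit. Such an unadjusted p was met at 803 of the 3318 tested probes. The LAS interval did include 0 when same-numbered arrays were paired. Both intervals included 0 when samples 1 and 2, and samples 3 and 4, were averaged. They also included 0 in the values as deposited and with each array centred on its median. Of the 4 genes, AGL54 was the one with little contrast between the WT samples on this normalized scale. For LAS, DME and SPL the WT samples fell into 2 levels, with samples 1 and 2 near the tic40 values and samples 3 and 4 away from them.

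That division of the WT arrays was present across the whole table. Over all tested probes the log2 normalized values of WT samples 1 and 2 correlated with each other at 0.947, and those of WT samples 3 and 4 at 0.946, but these pairs correlated with one another at only 0.707 to 0.722. WT samples 1 and 2 were closer to the tic40 arrays (0.874 to 0.907) than WT samples 3 and 4 were (0.739 to 0.800). The deposited intensities also sat lower on WT samples 1 and 2, with array medians of 0.361 and 0.354, against 0.560 to 0.604 on the other 6 arrays. The labels name no batch and do not tell these WT samples apart, and what sets them apart was not tested. Values are therefore given below by sample and also within samples 1 and 2 and within samples 3 and 4, and normalised intensities are on a relative scale with no unit.

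**Figure D1:**
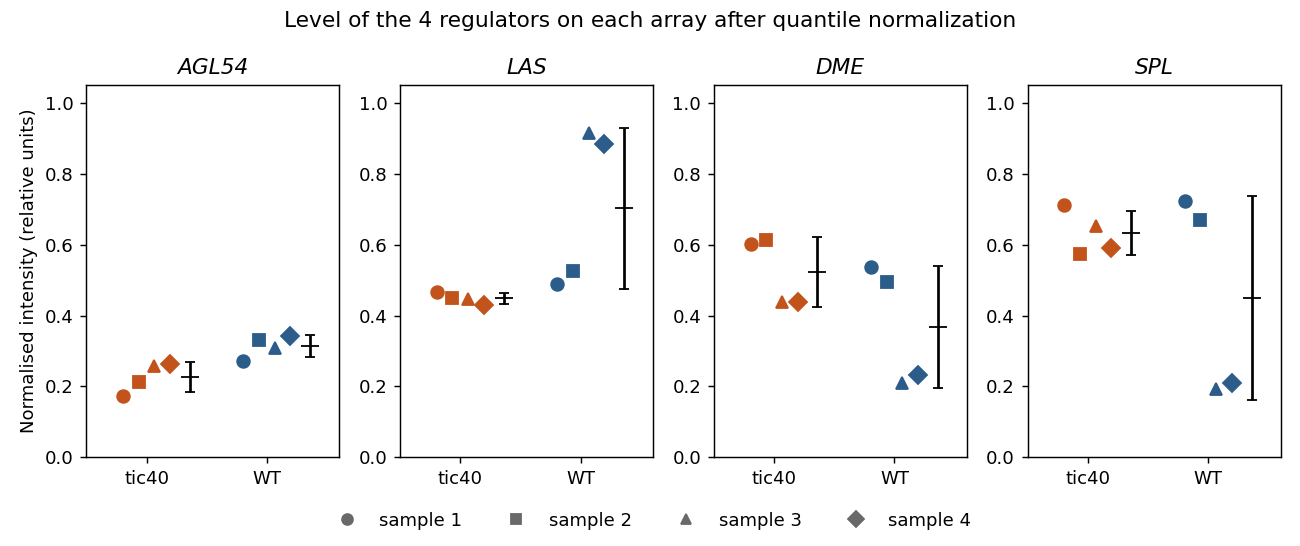
Normalised intensity (relative units, linear axis from 0) of AGL54, LAS, DME and SPL on each array, with tic40 on the left and WT on the right of each panel. Symbols mark the sample number, and the black bar is the mean ± SD of the 4 samples. In LAS, DME and SPL the WT samples 3 and 4 stand away from WT samples 1 and 2, while the 4 WT values of AGL54 lie between 0.271 and 0.342.

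AGL54 (AT5G27090) had the smallest spread among WT samples of the 4 genes on the normalised scale. Its normalised intensity was 0.173, 0.212, 0.257 and 0.264 in tic40 samples 1 to 4, and 0.271, 0.332, 0.309 and 0.342 in WT samples 1 to 4. All 4 tic40 values lay below all 4 WT values, but the highest tic40 value and the lowest WT value were close to each other. Such a complete separation with tic40 lower was met at 13.5% of the tested probes, and 2 of the 4 genes, AGL54 and LAS, showed it. The means were 0.226 ± 0.0422 in tic40 and 0.314 ± 0.0312 in WT (SD, n = 4 each). The log2 difference of -0.48 had an SE of 0.18 and a 95% interval of -0.89 to -0.08 (limma adjusted p = 0.140). That interval treats the 4 arrays of a genotype as independent. Pairing same-numbered arrays gave an interval of -0.85 to -0.12. Averaging samples 1 and 2, and samples 3 and 4, gave -1.4 to 0.43, which includes 0.

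After normalization, WT samples 3 and 4 lay close to WT samples 1 and 2 for this gene. The mean of WT samples 3 and 4 was 0.12 above that of WT samples 1 and 2 on the log2 scale, and only 9.25% of the tested probes had a smaller gap there. In tic40 the same contrast was 0.44, larger than at 75.9% of the probes, so the numbered pairs of AGL54 were farther apart in the mutant than in WT. Fitted in samples 3 and 4 alone, AGL54 had a log2 difference of -0.32 (SE 0.09, limma adjusted p = 0.0428), and in samples 1 and 2 alone -0.65 (SE 0.17, adjusted p = 0.0655). Of all probes, 60.3% passed in the first of these fits and 30.5% in the other.

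The direction for AGL54 depended on the scaling between arrays. In the values as deposited it stood at 0.220, 0.267, 0.294 and 0.299 in tic40 samples 1 to 4, and at 0.178, 0.214, 0.315 and 0.355 in WT samples 1 to 4. On that scale the genotypes overlapped, and the log2 difference was 0.07 (limma adjusted p = 0.906), while the median over all probes was itself shifted by 0.32. With each array centred on its median, the difference was -0.28 (adjusted p = 0.368). As deposited, WT samples 3 and 4 of AGL54 also lay above WT samples 1 and 2. On that scale the WT SD was 0.0832 for AGL54 and 0.0827 for DME, against 0.174 for SPL and 0.385 for LAS.

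Whether the AGL54 probe also binds transcripts of related genes was not tested. A second probe lists AGL54 together with 2 other genes and was not used for its level. That probe had a log2 difference of 0.13 (SE 0.16, limma adjusted p = 0.634), opposite in sign to the single-gene probe.

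LAS (AT1G55580), the axillary meristem gene, was nearly constant in the mutant. Its normalised intensity was 0.467, 0.449, 0.448 and 0.429 in tic40 samples 1 to 4, and 0.488, 0.525, 0.915 and 0.882 in WT samples 1 to 4. All tic40 values lay below all WT values, by little for WT samples 1 and 2 and by far more for WT samples 3 and 4. The means were 0.448 ± 0.0156 in tic40 and 0.703 ± 0.227 in WT (SD, n = 4 each), so almost all of the spread was in WT. The log2 difference was -0.59 with an SE of 0.24 and a 95% interval of -1.13 to -0.05 (limma adjusted p = 0.174). For LAS too, that interval treats the arrays of a genotype as independent. It included 0 once same-numbered arrays were paired (-1.20 to 0.02). Averaging samples 1 and 2, and samples 3 and 4, widened it to -1.68 to 0.50.

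WT samples 3 and 4 carried 1.77-fold the LAS signal of WT samples 1 and 2, a gap larger than at 58.9% of the tested probes. In tic40 the same contrast was -0.06 on the log2 scale, which put LAS among the steadier probes there, as 14.7% had a smaller gap. Fitted in samples 3 and 4 alone, LAS had a log2 difference of -1.04 (SE 0.07, limma adjusted p = 0.00321). In samples 1 and 2 alone the difference was -0.15 (SE 0.09, adjusted p = 0.281). These fits of 2 arrays against 2 know no variation other than that inside each pair, and 60.3% of all probes passed in samples 3 and 4 against 30.5% in samples 1 and 2. As deposited, LAS was higher in tic40 than in WT for samples 1 and 2 (0.546 against 0.339, and 0.526 against 0.356) and lower for samples 3 and 4 (0.492 against 1.04, and 0.470 against 0.988).

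DME (AT5G04560), the demethylating glycosylase, showed a step by sample number in both genotypes. Its normalised intensity was 0.603, 0.612, 0.438 and 0.438 in tic40 samples 1 to 4, and 0.537, 0.493, 0.210 and 0.232 in WT samples 1 to 4. In each genotype samples 3 and 4 were lower than samples 1 and 2, and for each number the tic40 value was the higher one. The genotypes overlapped nonetheless, because WT samples 1 and 2 lay above tic40 samples 3 and 4. The means were 0.523 ± 0.0980 in tic40 and 0.368 ± 0.171 in WT (SD, n = 4 each). The log2 difference was 0.61 with an SE of 0.35 and a 95% interval of -0.18 to 1.41 (limma adjusted p = 0.308).

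The step was larger in WT. Samples 3 and 4 differed from samples 1 and 2 by -0.47 on the log2 scale in tic40 and by -1.22 in WT, which exceeded the gaps of 78.6% and 75.4% of the probes in the same genotype. By sample number the log2 differences, tic40 minus WT, were 0.17, 0.31, 1.06 and 0.92 for samples 1 to 4. With the number as a replicate block, the SE of DME was 0.21 in place of 0.35 and the limma adjusted p was 0.159, so DME was not called there either, where 0.151% of the probes were. In samples 3 and 4 alone DME had a difference of 0.99 (adjusted p = 0.00414), and in samples 1 and 2 alone 0.24 (adjusted p = 0.127).

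DME was also the one gene of the 4 that passed in the values as deposited. It stood at 0.687, 0.697, 0.481 and 0.481 in tic40 samples 1 to 4, and at 0.371, 0.333, 0.199 and 0.225 in WT samples 1 to 4. Every tic40 value lay above every WT value, as at 21.4% of all tested probes on that scale. The log2 difference was 1.08 (SE 0.26, limma adjusted p = 0.0405), against a median shift of all probes of 0.32, and 9.37% of the probes were called higher on that scale. With median centring it was 0.73 (adjusted p = 0.292).

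SPL (AT4G27330), the sporogenesis gene, had the widest spread among WT samples of the 4 genes on the normalised scale. Its normalised intensity was 0.713, 0.574, 0.652 and 0.591 in tic40 samples 1 to 4, and 0.723, 0.670, 0.193 and 0.210 in WT samples 1 to 4. WT samples 1 and 2 lay within or just above the range of tic40, and WT samples 3 and 4 lay far below it. The means were 0.632 ± 0.0630 in tic40 and 0.449 ± 0.287 in WT (SD, n = 4 each). The log2 difference was 0.75 with an SE of 0.47 and a 95% interval of -0.32 to 1.82 (limma adjusted p = 0.348).

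WT samples 1 and 2 had 3.46-fold the SPL signal of WT samples 3 and 4, and 88.5% of the tested probes had a smaller gap between these WT samples. In tic40 the contrast of samples 3 and 4 with samples 1 and 2 was -0.04 on the log2 scale, and 10.3% of the probes had a smaller one. In samples 3 and 4 alone the difference between genotypes was 1.63 (SE 0.10, limma adjusted p = 0.00280), and in samples 1 and 2 alone it had the opposite sign, -0.12 (SE 0.14, adjusted p = 0.555). As deposited, SPL stood at 0.637 to 0.792 in tic40, against 0.182 to 0.513 in WT, without overlap, as at 21.4% of all tested probes on that scale. The SPL values as deposited gave a log2 difference of 1.19 (limma adjusted p = 0.0795), which was not called.

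**Figure D2:**
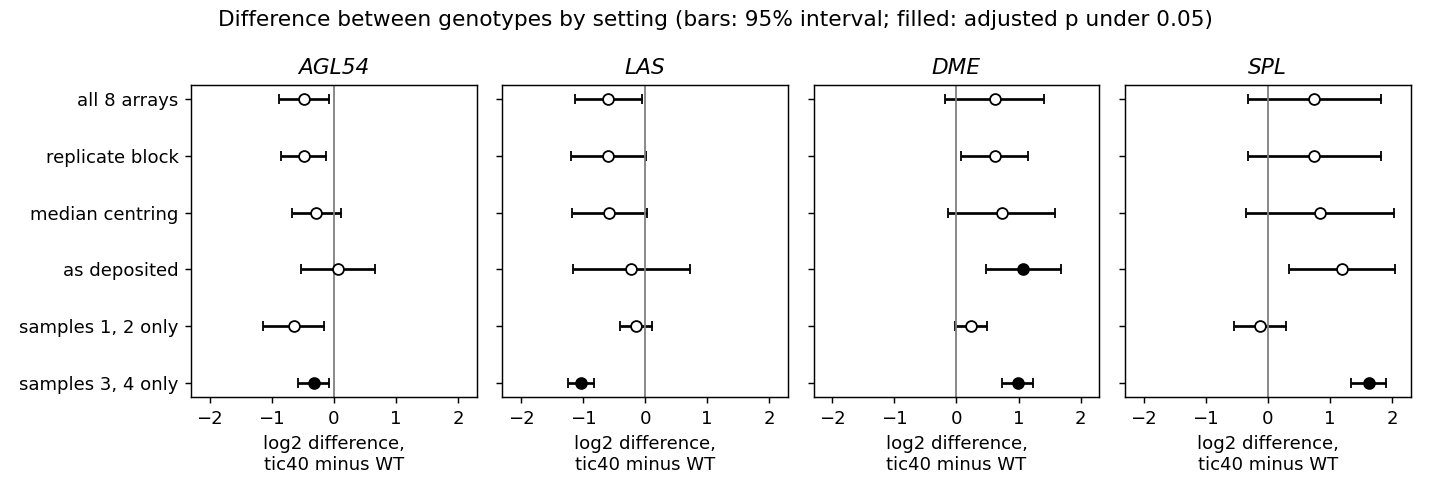
Log2 difference, tic40 minus WT, of AGL54, LAS, DME and SPL under 6 settings, from all 8 arrays at the top to samples 3 and 4 alone at the bottom. Points are limma estimates, bars 95% intervals, and filled points have an adjusted p under 0.05. All 4 genes are filled in samples 3 and 4 alone, where 60.3% of all probes passed, and only DME is filled as deposited.

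Ranks within each array need no scaling between arrays. Counted from the brightest of the 3439 probes, AGL54 stood at rank 2850, 2719, 2569 and 2545 in tic40 samples 1 to 4, and at 2519, 2317, 2393 and 2282 in WT samples 1 to 4. It thus lay in the dim part of every array and ranked dimmer on each tic40 array than on any WT array, as 12.8% of the tested probes did. LAS stood at rank 1882 to 2000 in tic40, near the middle of the array. In WT it stood at 1820 and 1714 in samples 1 and 2 and at 944 and 991 in samples 3 and 4, which placed it in the brighter part of the array in those 2 samples only. Like AGL54, LAS thus ranked dimmer on each tic40 array than on any WT array.

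DME stood at rank 1516, 1492, 1971 and 1971 in tic40 samples 1 to 4, and at 1678, 1805, 2727 and 2652 in WT samples 1 to 4. SPL stood at rank 1274, 1587, 1400 and 1544 in tic40 samples 1 to 4, and at 1255, 1360, 2787 and 2727 in WT samples 1 to 4. Both genes were thus mid-ranked in tic40 and in WT samples 1 and 2, and they were among the dim probes in WT samples 3 and 4. A rank also reflects how well a probe binds, so the ranks do not order the amounts of the 4 transcripts.

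Expressed as a percentile of all probes, with 100 as the brightest, AGL54 averaged 22.4 ± 4.13 in tic40 and 30.9 ± 3.05 in WT (SD, n = 4 each). The limma difference was -8.52 percentile points with a 95% interval of -14.6 to -2.40 (adjusted p = 0.101). LAS averaged 43.6 ± 1.40 in tic40 and 60.3 ± 13.5 in WT, with a difference of -16.7 points (interval -31.3 to -2.01, limma adjusted p = 0.164). DME averaged 49.5 ± 7.85 in tic40 and 35.6 ± 16.0 in WT, a difference of 13.9 points (interval -5.21 to 33.0, limma adjusted p = 0.347). SPL averaged 57.8 ± 4.15 in tic40 and 40.9 ± 24.4 in WT, a difference of 16.9 points (interval -9.46 to 43.2, limma adjusted p = 0.401). None of the 4 rank differences passed, while 7.9% of the probes did so on this scale, and the intervals for DME and SPL reach well to both sides of 0.

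**Figure D3:**
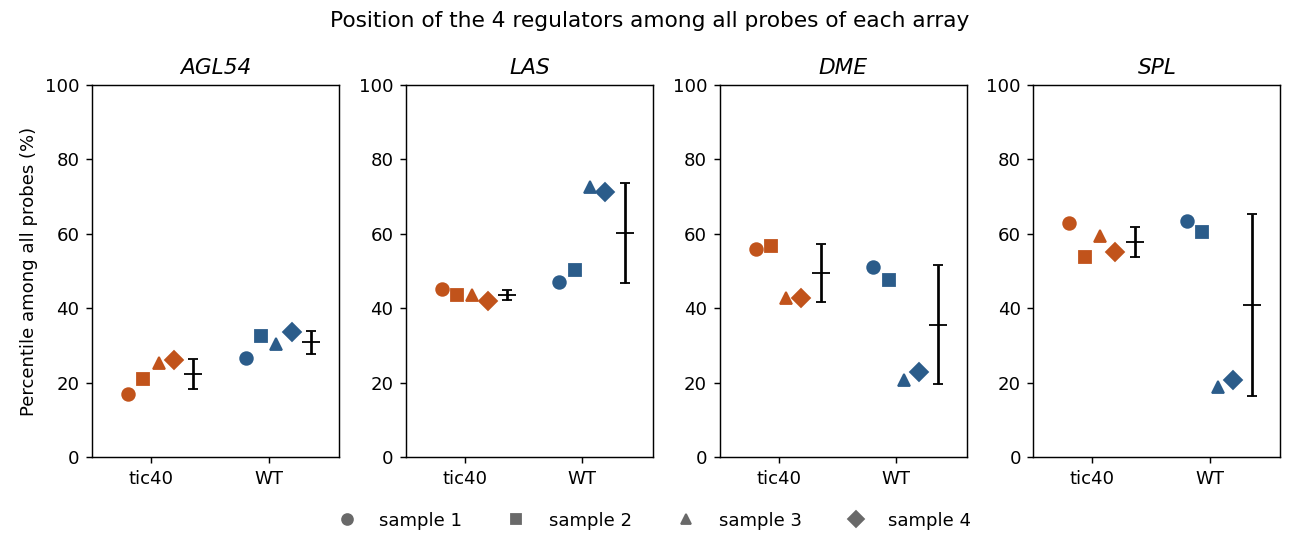
Percentile of AGL54, LAS, DME and SPL among all 3439 probes of each array (0 to 100, brightest at the top), with tic40 on the left and WT on the right of each panel and the mean ± SD in black. Symbols mark the sample number. SPL lies at 53.9 to 63.0 on the tic40 arrays, and at 60.5 and 63.5 on WT samples 1 and 2 but at 19.0 and 20.7 on WT samples 3 and 4.

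The genes around these 4 in their pathways were almost unmeasured by single-gene probes, as far as their names could be matched. Unmatched, and so not checked, were 7 GRAS, 2 meristem, 2 DNA methylation, 1 MADS box and 1 pollen name. Of the 39 MADS box genes of a fixed list, which does not hold the whole family, only AGL54 was measured, and of 27 regulators of axillary and shoot meristems and 27 GRAS family genes only LAS. DME was the one measured gene of 21 for DNA methylation and demethylation. It was also the one measured of 13 genes listed for imprinting and the seed Polycomb group, where it stands as a regulator of imprinted genes. SPL was the one measured gene of 22 for sporogenesis and anther development. For markers of flower and ovule (10), pollen (9), seed (12) and root (10) no single-gene probe was found. The tissue behind the RNA could therefore not be checked from them.

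Of 16 leaf photosynthesis markers 5 were measured, with 1 higher, 0 lower and 4 not called, where 7.69% of all tested probes were called. Their median log2 difference was -0.26, against -0.06 over all tested probes. The one called was PSBW, a photosystem II subunit, at 24.0 ± 1.42 in tic40 and 17.0 ± 0.953 in WT (SD, n = 4 each; limma adjusted p = 0.0479, and 0.0923 with the replicate block). Its log2 difference of 0.50 was not called as deposited (0.39, adjusted p = 0.355), with median centring (0.04, adjusted p = 0.961) or without any single array (0.47 to 0.54, adjusted p of 0.0613 to 0.137). It was called in samples 1 and 2 alone (0.48, adjusted p = 0.0269) and in samples 3 and 4 alone (0.52, adjusted p = 0.0157). Not called were LHB1B2, an antenna protein of photosystem II (-1.33), PSAN, a photosystem I subunit (-0.26), and the Calvin cycle enzymes PRK (-0.90) and SBPASE (0.21). In samples 1 and 2 alone LHB1B2 (-2.06, adjusted p = 0.0103), PRK (-1.58, adjusted p = 0.0107) and PSAN (-0.68, adjusted p = 0.0321) passed limma's test, and in samples 3 and 4 alone LHB1B2 did (-0.61, adjusted p = 0.0310). Passing was common there, with 30.5% of all probes in samples 1 and 2 alone and 60.3% in samples 3 and 4 alone. All 5 lay above 0 on every array, and the part of leaf tissue in the levels of the 4 regulators was not tested.

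Some further developmental genes, not all that have one, were picked from the names of the single-gene probes. SAP (STERILE APETALA), which acts in flower and ovule development, had a log2 difference of -0.26 (limma adjusted p = 0.593). TCP15, a TCP transcription factor of growth, had 0.47 (adjusted p = 0.450), and IYO (MINIYO), which promotes the onset of differentiation, had -0.19 (adjusted p = 0.400). None of these 3 genes was called. TCP15 passed as deposited (1.09, adjusted p = 0.0456) and in samples 3 and 4 alone (0.90, adjusted p = 0.00864), with 0.05 in samples 1 and 2 alone. SAP had opposite signs in samples 1 and 2 alone (-0.81, adjusted p = 0.0418) and in samples 3 and 4 alone (0.29, adjusted p = 0.0408). Of all probes, 30.5% passed in samples 1 and 2 alone and 60.3% in samples 3 and 4 alone, and 9.37% were called higher as deposited.

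FBL17, an F-box protein needed for division in the male germ line, followed the WT division seen in SPL. It stood at 0.274 to 0.330 in tic40, and at 0.373 and 0.327 in WT samples 1 and 2, but it was barely above 0 in WT samples 3 and 4 (deposited values 0.00148 and 3.172e-05). No fold is given for it, since signals that near 0 have no reliable ratio (limma adjusted p = 0.306).

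The single-gene probes whose log2 normalized values ran most like each regulator over the 8 arrays were also sought, among 611 others above 0 on every array. These correlations are descriptions over arrays that share the WT division, so they are given again over the 6 arrays without WT samples 3 and 4. Nearest to AGL54 were SECE1, a subunit of the Sec translocase of thylakoids (r = 0.944, and 0.950 over 6 arrays), GH9B8, a glycosyl hydrolase (0.941 and 0.949), and AT1G62250 (0.931 and 0.90). Only 4 probes exceeded 0.9 for AGL54. On the deposited scale AT1G62250 correlated with it at 0.0281 and GH9B8 at 0.502, so their likeness rested on the scaling, while SECE1 kept 0.936.

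Nearest to LAS were AT3G47980 (r = 0.993, and 0.870 over 6 arrays), AT3G44810 (0.982 and 0.745) and AT3G50180 (0.981 and 0.799). The values of AT3G47980 show the shared form, with a mean of 0.892 in tic40, against 0.945 in WT samples 1 and 2 and 2.04 in WT samples 3 and 4. In all, 35 probes exceeded 0.9 for LAS.

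Nearest to DME were AT3G52960, a type II peroxiredoxin (r = 0.996, and 0.976 over 6 arrays), CRR41, a factor of the chloroplast NDH complex (0.991 and 0.904), and AT1G51080 (0.990 and 0.926). For DME the likeness thus remained above 0.9 without WT samples 3 and 4, where the step between tic40 samples 1 and 2 and tic40 samples 3 and 4 is still present. Nearest to SPL were CML41, a calmodulin-like protein (r = 0.991, and 0.588 over 6 arrays), FZL, a dynamin-like protein of thylakoids (0.990 and 0.745), and AT5G55580, an mTERF protein (0.990 and 0.582). Over 0.9 were 69 probes for DME and 88 for SPL.

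**Figure D4:**
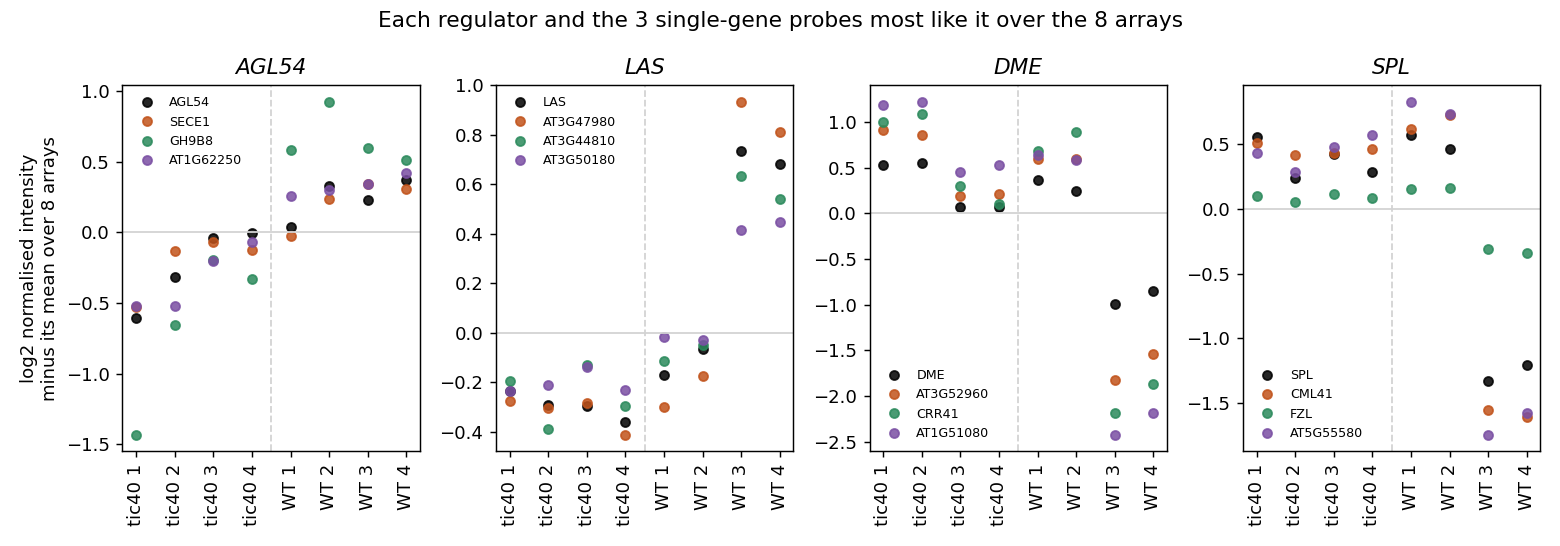
Log2 normalised intensity minus its mean over the 8 arrays (tic40 left of the dashed line, WT right of it) for each regulator in black and for the 3 single-gene probes most like it in colour. The vertical scale differs between panels. The probes beside LAS are high and those beside DME and SPL low in WT samples 3 and 4, and those beside AGL54 show no such step.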

How the data were processed

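The deposited table holds 1 intensity per probe and array, on a linear relative scale as judged from the values. What scanner the authors used, and how they corrected and scaled the signal, is not given in the sources used here. Intensities were quantile-normalized over the 8 arrays, exact zeros were raised to the array's percentile 1 of values above 0, and log2 was taken. The 4 regulators lay above 0 on all arrays. Of 3439 probes, 121 at 0 on every array were left out. Genotypes were compared with limma 3.58.1 in R 4.3.3 (lmFit, eBayes), two-sided, with Benjamini-Hochberg adjustment over 3318 probes. The script was tested on simulated data with independent noise, without the WT division or shared deviations by sample number. That test therefore does not bear on these features.

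Names came from the platform annotation, which gave 692 probes a single gene, 870 several and 1877 none, and 690 of the single names matched TAIR10.1. The members and gene lists were chosen with earlier results of these data known. Named are the members, every measured gene of the fixed lists and the 3 single-gene probes that correlated best with each member. SAP, TCP15, IYO and FBL17 were added after the probe names had been seen.

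Same-numbered tic40 and WT samples deviated together (r = 0.306, 0.310, 0.261 and 0.254 for numbers 1 to 4), so the number was taken to pair them and a fit with it as a block was added. Other alternatives were other scalings, floors, filters and left-out arrays. Arrays have no read depth, and their number limits the precision.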

Additional observations from a re-analysis of the deposited data

Results flagged for a closer look

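In 26 sets of 4 log2 normalised values, 1 for each genotype of each gene tested, 3 had a sample far from the other samples, and chance flags about 1 in 20 such sets. None of these concerned AGL54, LAS, DME or SPL. LHB1B2 stood at 1.55 in tic40 sample 4, above 1.33 to 1.37 in the other tic40 samples. PSAN stood at 0.31 in WT sample 3, below 0.77 to 0.84 in the other WT samples. SBPASE stood at -0.21 in tic40 sample 1, above -0.28 to -0.27 in the other tic40 samples.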

How the results depend on the processing

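The number of probes called was 255, and it was 5 with the number as a replicate block (884 at an unadjusted limma p under 0.05), 1012 in samples 1 and 2 alone, 2000 in samples 3 and 4 alone and 43 to 240 without any 1 array, with 127 without WT sample 3, 122 without WT sample 4 and 43 to 54 without a tic40 array. With samples 1 and 2, and 3 and 4, averaged, limma called 0 probes, with 184 under 0.05 before adjustment. The block changed no call among AGL54, LAS, DME and SPL. Without any 1 array, limma's log2 difference lay between -0.56 and -0.36 for AGL54, -0.75 and -0.44 for LAS, 0.39 and 0.84 for DME, and 0.43 and 1.07 for SPL, none of them called (adjusted p of 0.0892 to 0.600). In samples 3 and 4 alone all 4 passed, at -0.32 (AGL54), -1.04 (LAS), 0.99 (DME) and 1.63 (SPL). As deposited, AGL54 turned to 0.069 and DME passed at 1.08. SPL turned to -0.12 in samples 1 and 2 alone, and the multi-gene probe that lists AGL54 had 0.13. Among the other genes the sign turned as deposited for SAP (0.31) and IYO (0.21), in samples 3 and 4 alone for PSAN (0.15) and SAP (0.29), and in samples 1 and 2 alone for FBL17 (-0.26). LHB1B2 passed without WT sample 3 (adjusted p = 0.0426) and PRK without WT sample 4 (adjusted p = 0.0454). The cause of these changes was not tested. Raising every value under the floor (273 probes called, no call among the 4 genes), and reading the multi-gene probe, were chosen after seeing the data. The 4 rank differences kept their sign and were not called with the block or without any 1 array.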
